A study of Mus musculus with 4 samples.

Results

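The cytosolic ribosomal protein genes encode the protein parts of the ribosome that works in the cytoplasm. They were taken as the autosomal protein-coding genes of GENCODE M21 (basic annotation) whose symbol starts with Rpl or Rps followed by a digit, together with Rplp0, Rplp1, Rplp2 and Rpsa, leaving out the Rps6k kinases. This gave 88 of 20720 autosomal protein-coding genes. Their transcription start sites (TSSs) lay in 93 bins of 5 kb, and 1601 of the 237102 deposited chromatin interactions had an end in one of these bins. The rule used gene names and positions and no measured value, but it was set with earlier results of these data known.

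The interactions were measured by H3K4me3 HiChIP, which ligates pieces of chromatin that lie close together in the nucleus and then enriches the pieces that carry trimethylation of lysine 4 on histone H3, a mark of active promoters. The cells were bone marrow-derived macrophages of C57BL/6J mice, grown from marrow for 7 days. There were 2 basal samples and 2 samples given IL-4 at 20 ng/mL for 24 h. The list analysed here is the authors' merge of all 4, so it holds 1 value per pair of bins, with no error between replicates and no comparison of IL-4 with basal cells.

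Each ribosome has a small subunit, which reads the messenger RNA and carries the Rps proteins, and a large subunit, which joins the amino acids and carries the Rpl proteins. The subunits are put together largely in the nucleolus and need their proteins in matched amounts, although the genes are scattered over the chromosomes. Ribosomal protein genes are among the most steadily expressed genes of any cell, and many of their messenger RNAs begin with a run of pyrimidines, the TOP motif (terminal oligopyrimidine), through which mTORC1 controls their translation.

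Of the 88 genes, 73 were treated as core genes of the ribosome. The other 15 were paralogs, genes that only share the letters of the name, and annotated pseudogene-like copies (Rpl3l, Rpl7l1, Rpl10l, Rpl22l1, Rpl36al, Rpl39l, Rps27l, Rps19bp1, Rps27rt and 6 symbols that contain "-ps"). Of these, 5 symbols with "-ps" and Rps27rt were moved out of the core after their values had been seen. The X-linked genes Rpl10, Rpl36a, Rpl39 and Rps4x were not analysed here.

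The letters around the annotated start sites are shown because the pyrimidine run marks the family. Genes were placed in bins by their GENCODE starts, and the RefSeq starts shown here can differ from these. RefSeq promoters (GRCm38.p6) matched 62 of the 88 genes, 53 of them core. Each line below gives 15 bases before and 15 from the annotated start onwards, 5′ to 3′ on the strand of the gene, and capitals mark the run of C and T at the start where it had at least 6 letters. The first 5 genes have such a run and the last 3 do not.
Rpl31 (chr1:39367836-39367865, + strand): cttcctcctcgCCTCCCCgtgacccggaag
Rpl7a (chr2:26910792-26910821, + strand): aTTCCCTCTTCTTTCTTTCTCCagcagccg
Rps6 (chr4:86857353-86857382, - strand): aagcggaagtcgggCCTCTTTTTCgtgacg
Rplp2 (chr7:141447636-141447665, + strand): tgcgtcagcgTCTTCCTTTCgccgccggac
Rps24 (chr14:24490663-24490692, + strand): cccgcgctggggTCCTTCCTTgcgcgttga
Rps12 (chr10:23787195-23787224, - strand): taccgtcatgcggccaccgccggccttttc
Rplp0 (chr5:115559452-115559481, + strand): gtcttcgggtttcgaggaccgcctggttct
Rpl11 (chr4:136053379-136053408, - strand): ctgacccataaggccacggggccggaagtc

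A run of at least 6 pyrimidines at an annotated start was found for 25 of 62 ribosomal protein genes (40.3%), and for 2278 of 15680 genes with a promoter in the table (14.5%). The run reached 21 letters at Rpl7a. Within 50 bases of the start, the gene strand held CTTTCC in 20 of 62 (32.3%, against 5.14% of all genes) and CTCTTTC in 11 (17.7% against 1.54%). In the window from 250 bases before to 50 after the start, read on both strands, CCGGAAG, the core bound by Ets factors such as GABPA, was found in 25 (40.3% against 13.6%). The palindrome CTCGCGAG was found in 7 (11.3% against 1.42%), AAGATGGC, the core bound by YY1, in 6 (9.68% against 3.62%), the E-box CACGTG in 6 (9.68% against 9.22%) and the GC box GGGCGG in 38 (61.3% against 51.6%). The TATA letters TATAAA stood on the gene strand of 4 (6.45% against 9.43%). These are matches of letters, and RefSeq starts can differ from the starts used in macrophages.

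Ribosomal protein promoters were rich in listed contacts. At least 1 interaction was listed for 82 of the 88 genes, or 93.2% (95% Wilson interval 85.9 to 96.8), against 63.2% of all protein-coding genes, and at least 10 for 55 genes, or 62.5% against 27.3%. The median was 14.5 interactions per gene (quartiles 5 and 28.25, range 0 to 62), against 2 over all genes. Among genes with any interaction the medians were 15.5 and 7. Of the 82 genes with an interaction, 60 lay above the median of genes with interactions in regions of like gene density (decile medians 6 to 8). Because the authors tested only pairs of bins with an H3K4me3 peak in at least 1 of them, a gene without the mark can enter only as a partner. The level of the mark at these promoters was not used here, and its part in the counts was not tested.

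**Figure D1:**
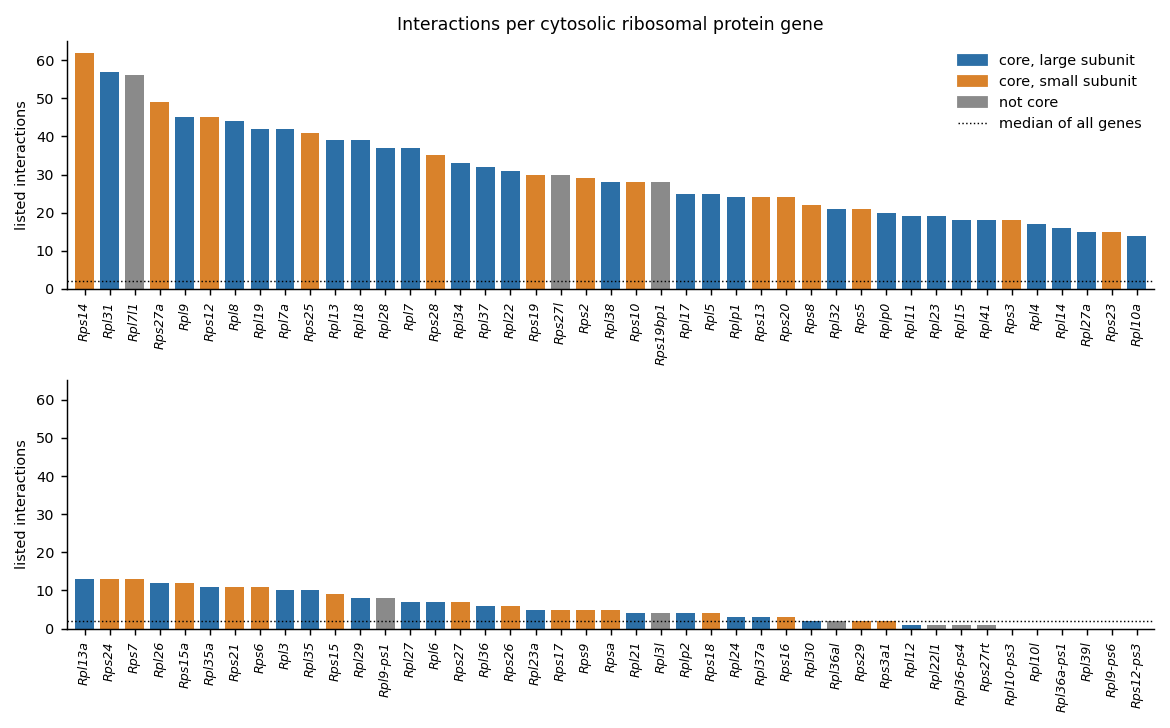
Bars give the number of listed interactions for 86 of the 88 genes in falling order, with core large-subunit genes in blue, core small-subunit genes in orange and the other 15 in grey. The dotted line is the median of all protein-coding genes (2), and 6 genes at the right end of the lower panel have no bar.

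The core genes held 1471 of the 1601 interactions. With only the listed paralogs and name-alikes left out, 76 of 79 genes had an interaction, with a median of 15. The core of 73 also leaves out the 6 genes moved after their values were seen, 3 of which had no interaction, so its counts partly follow from that choice. All 73 core genes had an interaction, with a median of 17, a lowest value of 1 at Rpl12 and a highest of 62 at Rps14. The 43 large-subunit genes had a median of 18 and the 30 small-subunit genes a median of 14, with ranges of 1 to 57 and 2 to 62 that overlapped almost throughout. Leaving out the core genes whose promoter bin also holds another gene left 56, all with an interaction and with a median of 15. Of the 15 genes outside the core, 9 had an interaction, and their median was 1. The 6 genes with none were Rpl10l, Rpl39l, Rpl9-ps6, Rpl10-ps3, Rpl36a-ps1 and Rps12-ps3. Rpl10l and Rpl39l are paralogs known for expression in male germ cells.

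Other genes of protein synthesis and turnover had counts of the same order. Of 78 mitochondrial ribosomal protein genes, 76 had an interaction (median 12), and of 49 proteasome subunit genes, 46 (median 14). Ribosome biogenesis factors had 50 of 51 and a median of 23, led by Nmd3, the export adaptor of the large subunit, with 100 interactions, and Mybbp1a with 72. The list of translation factors also holds genes of other roles, Naca and Tpt1 among them. It had 18 of 18 (median 12.5), led by Naca with 58, followed by Eif4b and Tpt1 with 26 each. Genes of mTORC1 and its targets had 15 of 16 (median 12.5), led by Akt1s1 with 61 and Rptor with 51. Fau and Rack1, ribosomal proteins with other names, had 34 and 13. As a check of the cells, 10 of 10 macrophage markers had an interaction (median 12, led by Mertk with 42 and Spi1 with 36), and 3 of 10 markers of other cell types did, led by Neurod1 with 3. These shares describe lists that were chosen with earlier results of these data known, and no difference between the lists was tested.

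**Figure D2:**
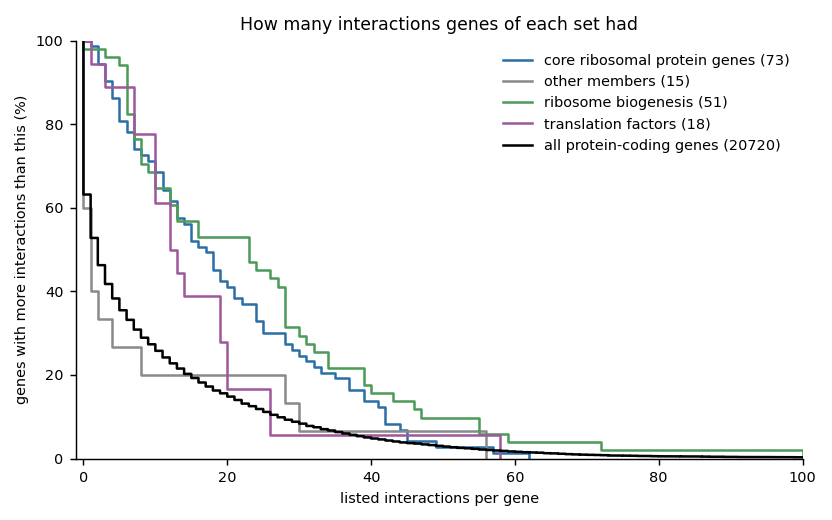
Each line gives the share of genes in a set (y axis, percent) that had more listed interactions than the number on the x axis, which ends at 100. Medians are 17 for core ribosomal protein genes, 23 for ribosome biogenesis factors and 12.5 for the translation factor list. These lines run above that of all protein-coding genes (median 2) up to 20 interactions. The 15 members outside the core start at 60%. The translation factor list also holds genes of other roles.

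The strength of single contacts was close to that at other promoters. For each pair of bins the list gives the observed count of read pairs and the count expected by the authors' model. Over the 1601 interactions the observed count had a median of 34 (range 8 to 931) and the ratio of observed to expected a median of 2.91 and reached 15.2, with a floor of 2 in the list. The median distance between the bins was 200 kb (quartiles 100 and 380), from 10 kb to the limit of 1 Mb. A ratio of at least 10 was reached by 10 interactions, or 0.625%, against 0.779% of the whole list. The observed count fell with distance while the ratio rose. Between 10 and 50 kb the median count was 173 and the median ratio 2.39, and between 500 kb and 1 Mb they were 16 and 3.95. At all other promoters the median ratios in these bands were 2.46 and 3.97, and over all distances 2.97. At the ribosomal protein promoters the median expected count fell from 69.6 in the nearest band to 3.77 in the farthest. Every listed pair had a false discovery rate under 0.01, and where few read pairs are expected only higher ratios can pass that limit. Its part in the rise of the ratio with distance was not tested.

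**Figure D3:**
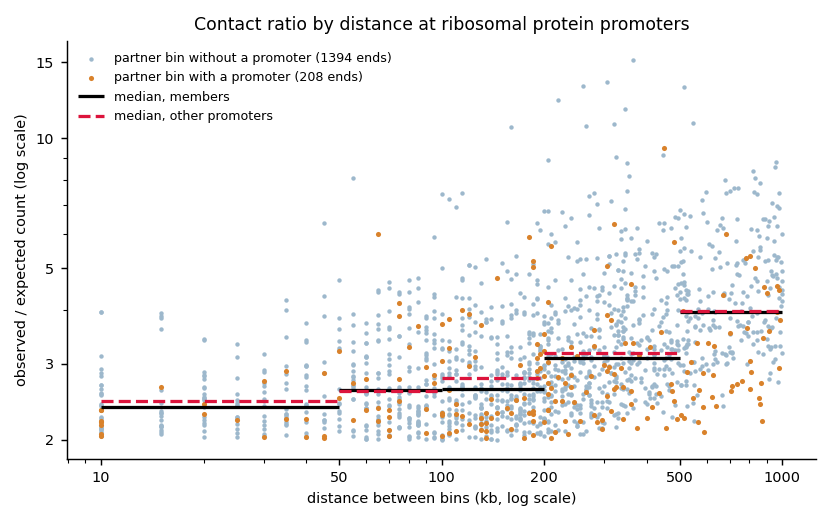
Each point is 1 interaction end at a ribosomal protein promoter, placed by the distance between its bins (x axis, kb, log scale) and by observed over expected count (y axis, log scale), in orange where the partner bin holds a promoter. Black lines are medians per distance band at these promoters and dashed red lines those at other promoters. Among the listed interactions both rise from below 2.5 in the nearest band to almost 4 in the farthest.

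Rps14, a protein of the small-subunit platform whose loss in human 5q deletion is tied to anaemia, had the most interactions, 62 in 15 clusters, and ranked 302 among the 20720 genes. Its annotated starts fell in 3 bins, which had 11, 33 and 18 interactions. The bin with 11 also holds a start of Ndst1, so those contacts cannot be given to 1 gene. Its highest count, 301 against 77.8 expected, joined that shared bin to an intron of Rps14 itself, 15 kb downstream.

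Rpl31, a large-subunit protein at the exit of the peptide tunnel (gene at chr1:39367842-39371911), had 57 interactions, 47 of them upstream. It held the highest ratio of the set. A bin 365 kb upstream, outside any protein-coding gene, had 116 read pairs against 7.63 expected, a ratio of 15.2 (95% Poisson interval of the count alone, 12.6 to 18.2). Its 30 partners outside genes were more than those in introns (15), in bins with exons (10) or at promoters (2). Its highest count, 296, was with an intron of Npas2, 15 kb away.

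Rpl7l1, a paralog of Rpl7 that acts in the making of the large subunit, had 56 interactions and was the only gene outside the core among the leading 10. It had a count of 429 with a bin 10 kb upstream. Among its partners was the promoter bin of Mrpl2, a mitochondrial ribosomal protein gene, and Klc4, 135 kb downstream, with 114 read pairs and a ratio of 2.18.

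Rps27a, which encodes ubiquitin fused to a small-subunit protein, had 49 interactions and none nearer than 75 kb. The strongest by count, 188 read pairs at 145 kb with a ratio of 4.73, led to a promoter of Rtn4, which encodes a protein that shapes the endoplasmic reticulum. Clhc1 has a start in the same bin as Rps27a. Rpl9 (45 interactions) likewise shares its bin with Lias, and its highest count, 288, was with the promoter of the replication factor gene Rfc1, 55 kb downstream. Rpl7a (42) shares its bin with Med22.

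Rps12 (45 interactions) had its contacts farther away, with a median distance of 405 kb and a median ratio of 4.40. A group of them lay at promoters of trace amine receptor genes upstream, with ratios of 6.34 at Taar9, 5.06 at Taar8b and 3.80 at Taar8c. These are neighbouring bins 305 to 320 kb away in 1 cluster and are not separate observations. Rpl8 (44 interactions) reached 11 bins with a promoter, and 41 of its partners were upstream. The strongest by ratio was the bin of Lrrc24 and C030006K11Rik, 180 kb away, with 242 read pairs and a ratio of 5.91.

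High ratios at long distance also came from Rpl7a and Rps24, in bins outside any protein-coding gene. Rpl7a reached a ratio of 13.2 with 146 read pairs at 260 kb, with a Poisson interval of 11.2 to 15.5. Rps24 reached 13.2 with 62 read pairs at 515 kb, with an interval of 10.1 to 16.9. The intervals overlapped each other and that of Rpl31.

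Rpl19 (42 interactions) was nearest in its contacts among the leading genes after Rpl7l1, with a median distance of 122.5 kb. Its highest count, 339, joined it to the promoter of Cacnb1, 10 kb upstream. Rpl19 and Rpl23, 245 kb apart, had no interaction with each other but shared 9 partner bins, which were 21.4% of the partner bins of Rpl19 and 47.4% of those of Rpl23. No other pair within 1 Mb shared more than 3.

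**Figure D4:**
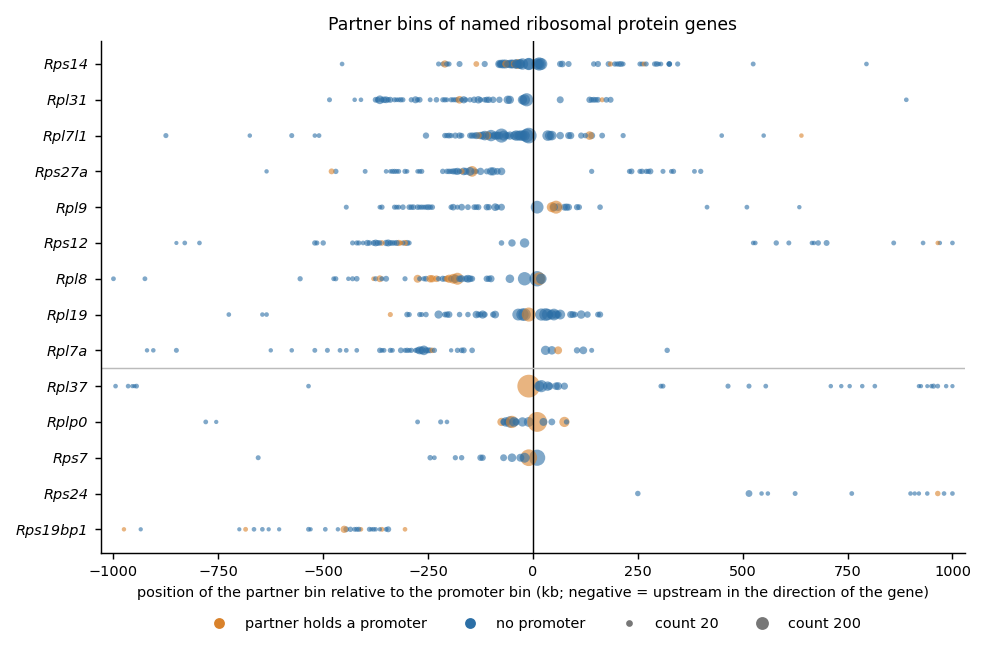
Each row is a gene, and each point is a partner bin placed by its distance from the promoter bin (x axis, kb, negative values upstream in the direction of transcription), with area growing with the read-pair count and orange for bins that hold a promoter. The upper 9 rows are from the genes with most interactions, and below the line are 5 further named genes, of which Rps24 has all 13 partners downstream and Rps19bp1 all 28 upstream.

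For some genes nearly all partners lay to 1 side, with no share at other promoters set beside this. All 13 partners of Rps24 were downstream and all 28 of Rps19bp1 upstream, and Rpl7 (94.6%) and Rpl8 (93.2%) had almost all on the upstream side. Rps14 (32 upstream, 30 downstream) and Rpl5 (12 and 13) had them on both sides. Partners in neighbouring bins belong to the same cluster, so these shares rest on fewer separate contacts than bins. The 28 interactions of Rps19bp1, for example, fell in 5 clusters. Rps19bp1 is a name-alike, a nucleolar protein that binds Rps19. Its highest count, 74, was with the promoter of Tnrc6b at 450 kb (ratio 9.50).

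The 5 highest counts all joined bins 10 kb apart, at ratios from 2.04 to 3.94. Rpl37 and the promoter of Card6, 10 kb away, shared 931 read pairs against 457 expected, a ratio of 2.04. Rplp0 and Gcn1l1, a regulator of the amino acid stress response, shared 702 at 10 kb (ratio 2.21), and Rps7 and Rnaseh1 shared 491 at 10 kb (ratio 2.16). Rps7 also had 458 read pairs with a bin 10 kb downstream, outside genes, against 116 expected, a ratio of 3.94.

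The proteins of the ribosomal stalk, which calls elongation factors to the ribosome, varied among themselves. Rplp1 had 24 interactions, Rplp0 20, Rplp2 4 and Rpl12, the base of the stalk, 1. Rplp0 was nearest in its contacts, with a median distance of 62.5 kb, and reached promoters of Pxn, Rab35 and Sirt4 besides Gcn1l1. Rplp1 had a median distance of 822.5 kb and no partner with a promoter. Its single highest count, 339, lay 10 kb upstream in a bin with exons of Kif23. The only interaction of Rpl12 was with the promoter of Zbtb43, at 505 kb, with 42 read pairs and a ratio of 2.28. The bin of Rpl12 also holds a start of Lrsam1, so this contact cannot be given to Rpl12 alone.

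Rpl5 and Rpl11 form a particle with 5S RNA that can also bind Mdm2 and so stabilise p53. They had 25 and 19 interactions. The highest count of Rpl11, 364, lay inside its own gene, 10 kb downstream, and it reached the promoter of E2f2 at 120 kb with 136 read pairs and a ratio of 2.17. The partners of Rpl5 lay within 285 kb, with ratios of up to 5.20 at an intron of Rpap2. Rps19, the first gene linked to Diamond-Blackfan anaemia, had 30 interactions, 8 of them with a promoter in the partner bin. The highest count of these was at Dmrtc2, 10 kb away (197 read pairs, ratio 2.20). Tgfb1, at 805 kb, was among those with low counts (18 read pairs, ratio 2.62). The 20 genes of the set linked to that anaemia all had an interaction, as did all 73 core genes. Their median was 13, against 17 in the core, and their range 2 to 57.

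Rps6, the small-subunit protein that S6 kinase phosphorylates downstream of mTORC1, had 11 interactions. One of them was with the promoter of Rraga, 280 kb downstream, with 98 read pairs and a ratio of 3.60. Rraga encodes a Rag GTPase that recruits mTORC1 to lysosomes when amino acids are present. Rpsa, the small-subunit protein also known as the laminin receptor, had 5. One of these led to the bin of the Xirp1 promoter, which also overlaps Cx3cr1, the fractalkine receptor gene of monocytes, at 105 kb with 31 read pairs and a ratio of 2.07.

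Among the genes outside the core, Rps27l, a paralog of Rps27 and a p53 target, had 30 interactions, 27 of them upstream, and a highest count of 405 at 10 kb. Rpl3l, a form of Rpl3 known from striated muscle, had 4, and Rpl36al, whose bin also holds a start of Mgat2, had 2. Rpl22l1 had 1, with the promoter of Tnik at 545 kb. Rpl9-ps1 had 8, but its bin also holds the start of Ccl3, a macrophage chemokine gene, and one of its partners was the promoter of the chemokine gene Ccl9 at 70 kb (83 read pairs, ratio 2.34). Rpl9-ps1 was named after its values had been seen.

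Direct contacts between ribosomal protein genes could be read for few pairs. Of 11 pairs of genes within 1 Mb of each other, 10 were far enough apart to be listed. Among these 1 pair was joined, Rps2 and Rpl3l, with 336 read pairs against 143 expected at 10 kb (ratio 2.35), and the bin of Rps2 also holds Ndufb10. Counted by bins, 1 of 11 possible pairs was joined (9.09%), against 2.28% of 478478 pairs of promoter bins of all genes, and a single joined pair does not set a rate. All other pairs of these genes lie on different chromosomes or beyond 1 Mb, where this list gives no value.

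Partner bins held a promoter in 208 of 1602 ends, or 13.0%, against 13.7% at other promoters, where the interaction between Rps2 and Rpl3l gives 2 ends. Exons without a promoter were found in 38.5% (95% Wilson interval 36.2 to 40.9) against 32.9%, introns alone in 21% at both, and no protein-coding gene in 27.5% (25.3 to 29.7) against 32.4%. The intervals treat ends as independent, while neighbouring bins are not, so they are too narrow. A start of 211 genes lay in partner bins. Of the 208 ends, 6 led to genes of the other lists, with no share at other promoters computed beside them. These were Mrpl2 from Rpl7l1, Psme3 from Rpl27, Gar1 from Rpl34, Eif3f from Rpl27a and Akt1s1, in 2 bins, from Rpl18. The bin of Rpl18 also holds a start of Sphk2. None of the 1602 ends led to a bin with a named ribosomal protein pseudogene, against 0.0876% of ends at other promoters. Many ribosomal protein genes carry snoRNAs in their introns. The 28 core genes that do had a median of 17.5 interactions and the 45 that do not a median of 16.

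**Figure D5:**
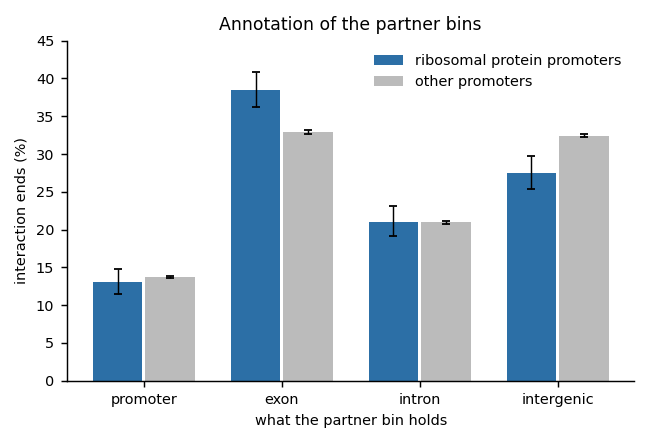
Bars give the share of interaction ends (y axis, percent) whose partner bin held a promoter, exons without a promoter, introns only or no protein-coding gene, for 1602 ends at ribosomal protein promoters (blue) and 157604 at other promoters (grey). Lines are 95% Wilson intervals, and the largest gap is at exons, 38.5% against 32.9%.

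Letters bound by macrophage factors were searched in partner bins without a promoter, of which there were 1360 at the ribosomal protein genes and 86816 at all promoters. GAGGAAGT, bound by PU.1, the factor that specifies macrophages, was found in 27.1% of the first and 27.9% of the second, and TGAGTCA, bound by AP-1, in 60.1% and 59.9%. TTGCGCAA (C/EBP) was found in 0.735% and 0.492%, and GCGTGGGCG (EGR) in 0.441% and 0.385%. TTCNNNNGAA, the form bound by STAT6, through which IL-4 acts, was found in 70.1% and 74.9%. All were read on both strands of the whole 5 kb. The bins had 45.9% and 44.1% G and C. Among the 10 highest ratios with no promoter in the partner bin, 3 partner bins held the PU.1 letters and 5 the AP-1 letters. The bin with the highest ratio, the partner of Rpl31, held neither, and nor did the bin of Rpl7. Outside the Rps24 partner bin, the PU.1 letters lay in the same window, which is repeated many times on the autosomes. Those matches are therefore not separate examples. Some of the AP-1 windows were also found at several places on the autosomes. Examples from bins among these 10 are shown, with the motif in capitals on the strand named.
Rpl7a partner, AP-1 (chr2:26652449-26652477, + strand): aagaatagagcTGAGTCAagctatctcct
Rps24 partner, PU.1 (chr14:25005465-25005494, + strand): agattttagaaGAGGAAGTagctggtccca

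The windows from Rpl7a and Rps24 occurred 1 time each on the autosomes, counting both strands. The bins they lie in were soft-masked as repeats in the RefSeq genome over 23.5% and 31.0% of their bases, against a median of 29.1% in the partner bins of the set.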

How the data were processed

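Members and gene lists were chosen with earlier results of these data known. Per the labels and the study's methods, cells were fixed, cut with MboI and immunoprecipitated for H3K4me3, and the authors ran MAPS at 5000 bp on mm10 over the merged reads, with H3K4me3 ChIP-seq peaks as anchors. The submitters' notes name Bowtie2 and bedtools. The deposited list gives, per pair of bins, the observed count of read pairs, the expected count computed by the authors' caller, and a false discovery rate (an adjusted p-value by the authors, all under 0.01). Every deposited ratio of observed to expected was at least 2. The authors' deposited −log10 p of each cluster was not used, and cluster labels were used only to group bins.

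Starts of protein-coding transcripts (GENCODE M21) were assigned to bins, and an interaction counted for each gene with a start in either bin. Partner bins were classed by promoter, then exon, then intron. Gene density was the number of genes within 500 kb, in 10 groups. The 19 autosomes fit the GRCm38 lengths, so partner sequence was read from that genome. Named genes were the 10 members with most interactions, those of the 5 highest counts and 5 highest ratios, joined pairs, members with none, the stalk, Rpsa, Rps6, Rps19, Rpl5, Rpl11, Rps27a, the name-alikes, and partners of these. Other genes were named as members of a list or as examples seen in the values.

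Counts and medians cover all genes, but results of some genes are not reported here. No test between groups was possible, since 1 merged list holds all 4 samples. Depth per sample is unknown, and intervals (Wilson for shares, exact Poisson for counts at a fixed expected count) cover counting error only. The counting was tested on simulated data, planted only at genes with a single, unshared promoter bin and with partner bins lacking a promoter. Shared bins, genes with several bins and partners with a promoter were not covered by that test. Python 3.11.15, pandas 2.3.3, scipy 1.17.1 and pysam 0.24.0 were used.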

Additional observations from a re-analysis of the deposited data

How the results depend on the processing

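No paired analysis was possible because the deposited list merges all 4 samples, and for the same reason no replicate could be left out. Of 77 values recomputed under alternatives, 48 stayed within the main interval, or within 1.5 times for counts. The number of interactions, 1601, fell to 842 at a false discovery rate under 1e-06, to 330 at a ratio of at least 4 and to 376 with 1 interaction kept per cluster. The median per gene, 14.5, became 7, 1.5 and 4 under these settings, while that of all genes became 1, 0 and 1. It became 21 with starts within 2500 bp of a bin counted (4 over all genes). Without shared promoter bins it became 8.5 (2 over all genes), with genes that had no other bin counted as 0. The 56 core genes with no shared bin had a median of 15. The median ratio, 2.91, became 3.26, 5.04 and 3.74 under the first 3 settings, 2.99 without shared bins and 3.01 at distances of at least 50 kb. The median distance, 200 kb, became 125, 385 and 342.5 kb under the first 3 and 225 kb at distances of at least 50 kb. The share of interactions with a promoter in the partner bin, 12.9%, became 6.67% at a ratio of at least 4, 10.1% with 1 per cluster, 30.0% with the wider starts and 11.1% with the outermost start of each gene. The 1 joined pair became 3 with the wider starts and 0 at a ratio of at least 4, without clusters of 1 bin pair, with outermost starts, without shared bins, without paralogs, in the core alone and at 50 kb or more. The alternatives of core genes alone and of at least 50 kb were chosen after seeing the data. The number of genes with an interaction stayed between 65 and 84 in the settings over all 88 genes. A cluster spans neighbouring bins, so counts of interactions exceed counts of separate contacts, and 5 kb bins cannot separate genes that share one.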
